A study of Mus musculus with 6 samples.

Results

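Among 6 RNA sequencing libraries of mouse duodenum, 2 held the transcript of Reg3b, a secreted C-type lectin of the gut epithelium, at a level far above the other 4. These 2 Reg3b-high libraries, control 3 and mutant 3, are described here against the 4 Reg3b-low libraries, controls 1 and 2 and mutants 1 and 2. The libraries were chosen by their Reg3b values: a library was high above 20000 FPKM (fragments per kilobase of transcript, scaled to the library's mapped fragments) and low below 10000. The library just inside the upper limit was control 3 with 42934 FPKM, and the library just below the lower limit was control 2 with 5823 FPKM. The other values were 1466.5 FPKM in control 1, 651 in mutant 1, 207 in mutant 2 and 47743 in mutant 3.

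All samples were whole duodenum, the 2 cm next to the stomach, of mice aged 6 weeks on a mixed background. Controls (3 samples) were Nkx2.2flox/+, with 1 floxed allele and no Cre named. Mutants (3 samples) were Nkx2.2flox/flox; Villin-Cre/+, in which a recombinase driven by the Villin promoter acts in the intestinal epithelium on both alleles of Nkx2-2, a homeodomain factor of enteroendocrine cells. Mutant 3 also carried a Rosa26Tomato/+ reporter allele, which neither the controls nor the other mutants are labelled with. The 2 high libraries are therefore 1 of each genotype, and both are numbered 3 in the labels. What a number stands for is not labelled, so the Reg3b split and anything else that the 2 libraries share cannot be told apart. Separate animals or litters are not stated either, so the p-values rest on the spread among these samples, which may be technical.

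Reg3b and Reg3g belong to the Reg3 family, antibacterial lectins that enterocytes and Paneth cells secrete into the mucus. Their transcription is known to depend on microbial signals and on interleukin-22 from lymphocytes, which acts on the epithelium through STAT3. Interferon-gamma induces another set of epithelial defence genes, among them Ubd, the ubiquitin-like protein FAT10, and the genes of antigen presentation. These are background facts, and neither bacteria nor cytokines were measured here.

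Depth ranged from 20.9 to 26.1 M fragments per library. Xist was at 19.7 and 22.5 FPKM in mutants 2 and 3 and at most 0.0893 elsewhere, so the high libraries were 1 without and 1 with Xist. For Nkx2-2 itself, the targeted gene, the controls held 1.13, 1.32 and 0.779 FPKM and the mutants 1.10, 0.736 and 0.221 FPKM in the order of their numbers, so the genotypes overlapped. The epithelial genes Vil1 (528 to 702 FPKM) and Cdx2 (52.2 to 80.9 FPKM) were present in every library, and so was Pdx1, a transcription factor of the duodenum and pancreas (76.7 to 93.7 FPKM). In a principal component analysis of all genes tested, the first component held 44.8% of the variance, with control 3 and mutant 3 at 0.55 each and the other 4 libraries between -0.49 and -0.13.

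Reg3b and Reg3g led the genes that were higher in the Reg3b-high libraries, and Ubd came next. A gene is called higher or lower here when both high libraries lay beyond all 4 low ones and its log2(FPKM + 0.5) difference, fitted with genotype as a term, was at least 1. This scale understates the difference of genes near 0. Reg3b chose the libraries, so every comparison between them is a description and carries no test. Of 13854 genes, 163 (1.18%) were called higher and 195 (1.41%) lower, and the median difference of all genes was 0.08. The libraries are bulk tissue, in which fewer cells of a type and less RNA per cell cannot be told apart.

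Reg3b (chromosome 6, 78320879 to 78323460 of mm9) took 5.92% and 6.64% of all FPKM in control 3 and mutant 3, against 0.0300% to 0.868% in the low libraries. Its log2 difference was 5.45 (SE 1.29). Reg3g (chromosome 6, 78416262 to 78418868) was at 484 and 1915 FPKM in controls 1 and 2, at 13426 in control 3, at 282 and 96 in mutants 1 and 2 and at 14609 in mutant 3. Reg3g thus had a 35.1-fold higher level in the high libraries, close to the 43.7-fold of Reg3b. The counting rule is not given in the sources used here, and whether reads of this related pair were shared was not tested.

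Because both genes moved together, their upstream sequences are shown, each as the 250 bases before the RefSeq transcription start on the GRCm38.p6 build. Capitals mark runs of at least 10 bases that the aligned pair shares. Reg3b lies on the plus strand (chr6:78370635-78370884) and Reg3g on the minus strand (chr6:78468875-78469124).
Reg3b: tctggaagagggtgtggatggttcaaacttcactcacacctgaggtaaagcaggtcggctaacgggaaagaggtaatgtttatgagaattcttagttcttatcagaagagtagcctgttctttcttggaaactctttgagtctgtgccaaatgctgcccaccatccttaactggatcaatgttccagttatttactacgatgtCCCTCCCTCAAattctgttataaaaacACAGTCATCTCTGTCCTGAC
Reg3g: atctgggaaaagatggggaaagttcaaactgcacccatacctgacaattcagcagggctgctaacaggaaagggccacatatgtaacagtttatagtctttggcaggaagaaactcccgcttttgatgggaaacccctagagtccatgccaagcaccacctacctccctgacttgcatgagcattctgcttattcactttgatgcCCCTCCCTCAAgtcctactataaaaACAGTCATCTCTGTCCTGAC
The pair is identical at 173 of 250 bases (69.2%), and the longest identical run, of 20 bases, ends at the base before the start.

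The rest of the Reg family split in direction. Reg3a, another lectin of the same cluster, was at 29.2, 50, 19.4 and 15.2 FPKM in the low libraries and at 151 and 113 FPKM in control 3 and mutant 3 (log2 difference 2.33, SE 0.36). Reg1 was abundant in every library, between 4076 and 10551 FPKM in the low ones and at 14681 and 13284 FPKM in the high ones, a log2 difference of 1.02. Reg4, a secreted lectin of crypt and endocrine cells, went the other way, from 147 to 222 FPKM in the low libraries to 80.8 in control 3 and 15.0 in mutant 3 (log2 difference -2.31). Of the 7 family members tested, 4 were called higher and 1 lower, and Reg3b, which chose the libraries, is 1 of these 4.

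Ubd (chromosome 17, 37330837 to 37333046 of mm9) was at 122 FPKM in control 3 and 59.9 in mutant 3, against 13.9, 2.71, 2.07 and 1.85 FPKM in control 1, control 2, mutant 1 and mutant 2. Saa1, an acute-phase apolipoprotein, was listed at 0 in the 2 low controls. The 2 low mutants held 0.118 and 0.106 FPKM, about 1 fragment each, and the high libraries 12.1 and 5.53 FPKM. B3galt5, a galactosyltransferase of glycan chains, was at 51.6 and 50.7 FPKM in control 3 and mutant 3 and between 1.63 and 8.26 in the others. None of these groups overlapped.

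**Figure D1:**
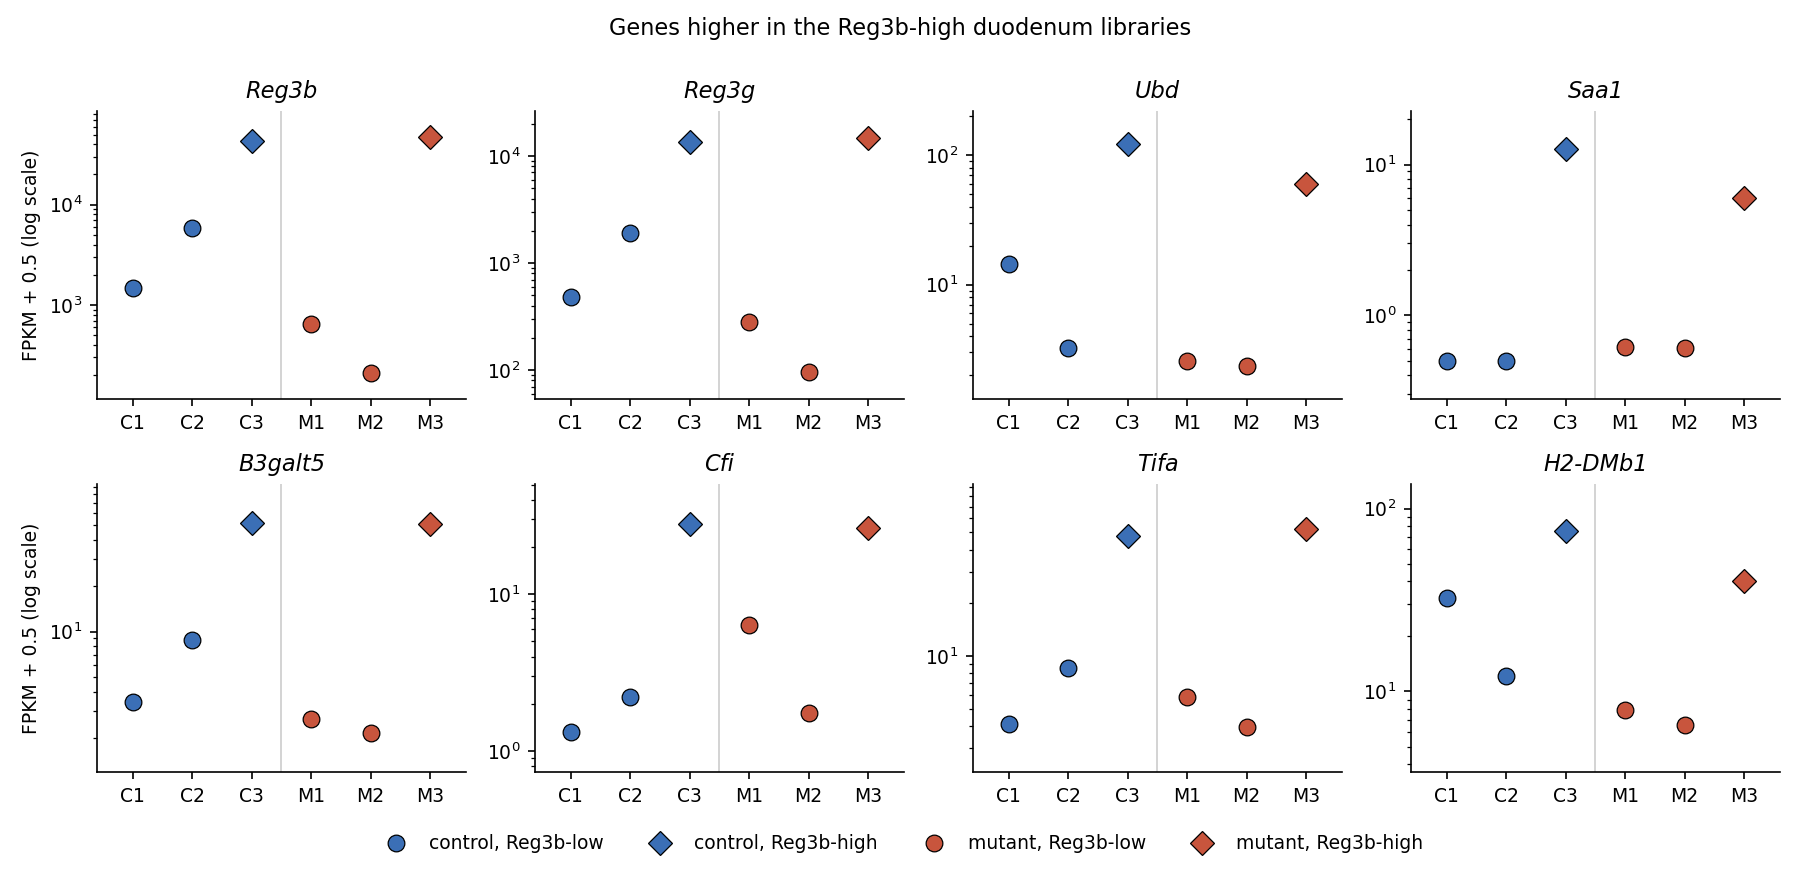
FPKM + 0.5 (log axis, its range differs between panels) of 8 genes in each library; C1 to C3 are controls and M1 to M3 mutants, circles are Reg3b-low and diamonds Reg3b-high libraries, and each point is 1 library, so there are no error bars. In every panel both diamonds lie above all 4 circles, as the choice of genes called higher requires; for Ubd they lie at 122 and 59.9 FPKM, against 1.85 to 13.9 FPKM.

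Further genes of large difference were Cfi, Tifa, Sprr2a2 and Rasd1. Cfi, the complement factor I protease, was at 27.5 and 25.9 FPKM in the high libraries, and at 0.818, 1.70, 5.90 and 1.24 FPKM in control 1, control 2, mutant 1 and mutant 2. Tifa, an adaptor for bacterial sugar sensing, was at 47.3 and 51.8 FPKM against 3.44 to 8.02, so all 4 low libraries lay close together. Sprr2a2, a small proline-rich protein of the epithelium listed at 2 loci with near-equal values, was at 961 FPKM in control 3 and 541 in mutant 3. Its low libraries were far apart (48.5 and 7.84 FPKM for controls 1 and 2, 377 and 153 for mutants 1 and 2), so its log2 difference was 5.57 within controls and 1.17 within mutants. Rprl3, a ribonuclease P RNA-like gene, reached 7.40 and 5.41 FPKM from 4.27 and 3.05 estimated fragments and rests on too few reads to describe further.

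Antimicrobial and barrier genes were called higher in 10 of 21 tested and lower in 0, with a median log2 difference of 1.07. The list is not of enterocytes alone. Ang4, Itln1 and Pla2g2a are also on the Paneth cell list, Retnlb and Zg16 on the goblet cell list, and S100a8 and S100a9 on the neutrophil list. The difference was positive in 19 and negative in 2, Ang4 (-1.26) and Itln1 (-0.59), both abundant. Pla2g2a had a difference of 3.72 but was not called. The list's summed FPKM overlapped, at 9085 and 9824 in control 3 and mutant 3 against 7435 to 11986 in the low libraries. Lcn2, which binds bacterial siderophores, was at 17.9 and 17.6 FPKM in the high libraries and at 4.92, 8.57, 3.00 and 2.09 FPKM in control 1, control 2, mutant 1 and mutant 2. Duox2 and Duoxa2 form the epithelial oxidase that makes hydrogen peroxide. Duox2 was at 6.97 FPKM in control 3 and 7.90 in mutant 3 but also at 6.81 in mutant 1, with 2.77 in mutant 2 and 0.754 and 0.940 in controls 1 and 2. Its separation was therefore narrow, and the log2 difference was 2.47 within controls and 0.78 within mutants. Nox1, another oxidase subunit, was at 2.42 and 2.58 FPKM against 0.0283 to 0.720, and Cyba, the shared membrane subunit, at 135 and 128 against 38.9 to 81.8. Pigr, the receptor that carries immunoglobulin A across the epithelium, was not called, at 1671 and 1632 FPKM in control 3 and mutant 3 against 1278 to 1765.

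The list for interleukin-22, STAT3 and interleukin-17 holds response genes and also receptors and pathway members, such as Il22ra1, Il17ra and Stat3. Of 20 tested, 8 were called higher and 0 lower, and the median log2 difference was 0.61. Reg3b and Reg3g themselves are 2 of these 8. Socs3, the feedback inhibitor of STAT3 signalling, was at 26.5 and 29.8 FPKM in the high libraries and at 6.55, 8.30, 7.29 and 5.63 FPKM in control 1, control 2, mutant 1 and mutant 2 (log2 difference 1.95, SE 0.20). Pla2g5, a secreted phospholipase, was at 19.3 and 23.8 FPKM against 1.52 to 3.85. Within controls and within mutants the difference was 1.77 and 2.13 for Socs3, and 2.33 and 3.36 for Pla2g5. Fut2, which fucosylates epithelial glycans, was at 15.5 and 16.6 FPKM, against 9.66 and 9.85 in mutants 1 and 2 and 2.09 and 6.36 in controls 1 and 2. In the list of fucosylation and glycan transfer genes, 3 of 13 were called higher and 0 lower: B3galt5, Fut2 and the mucin-type enzyme Gcnt3 (log2 difference 1.03).

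The interferon-gamma list held 30 tested genes, of which 29 had a positive difference and 5 were called higher. Zbp1, a sensor of nucleic acids, was at 78.3 and 78.5 FPKM in the high libraries and at 15.9 to 37.2 in the low ones. Il18bp, a decoy receptor of interleukin-18, was at 23.5 and 24.7 FPKM against 4.54 to 11.7. The GTPases Iigp1 and Tgtp1 were at 21.2 and 12.2 FPKM in control 3 and at 13.4 and 6.30 in mutant 3. The list's median log2 difference was 1.10 within controls and 0.37 within mutants. In the test of a difference between genotypes, 0 of its genes passed. Of all genes, 0.0217% passed with a higher and 0.101% with a lower difference in mutants, so this 0 is no result. The type I interferon list (26 genes) had medians of 0.65 within controls and -0.36 within mutants. It had 0 calls, against 1.18% of all genes called higher and 1.41% lower, so the 0 is no result. There the highest library was a Reg3b-low one: Isg15 was at 149.9 FPKM in mutant 2, against 82.6 and 80.4 in control 3 and mutant 3 and 22.5 to 59.1 in the other low libraries.

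Antigen presentation genes were mixed. H2-DMb1 and H2-DMa, which load peptide onto class II molecules, were called higher, with H2-DMb1 at 75.2 and 39.7 FPKM in the high libraries and at 31.9, 11.7, 7.44 and 6.02 FPKM in control 1, control 2, mutant 1 and mutant 2. For H2-Ab1, a class II chain, control 1 (379.7 FPKM) lay above mutant 3 (346 FPKM), so it was not called although its log2 difference was 1.67. Of 11 class II genes 2 were called higher, and the median was 0.88. Among 22 class I and immunoproteasome genes, H2-T22 and H2-T23 were called higher and H2-Bl lower. H2-Bl was at 17.6 and 15.7 FPKM in the high libraries and at 246, 202, 69.7 and 83.3 FPKM in control 1, control 2, mutant 1 and mutant 2. B2m, the light chain of class I, was not called, with a log2 difference of 0.25. H2 genes are near-identical copies in variable order between strains, these mice were of mixed background, and the part of shared reads or strain in these values was not tested.

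To show what the called genes have upstream, 3 short motifs were searched on both strands in the 250 bases before each RefSeq start. Promoters were at hand for 116 of 161 names called higher, 137 of 194 called lower and 9777 of 13793 tested. The STAT motif TTCNNNGAA was in 14.7% of the promoters of genes called higher, 6.57% of those called lower and 7.37% of all. The interferon response core GAAANNGAA was in 15.5%, 5.11% and 7.62%, and the NF-kB motif GGANTTTCC in 5.17%, 0.73% and 1.47%. The first 2 motifs share the letters GAA and can overlap. A match is a description of letters and not a site. Reg3g and Ubd held 0 matches of each of the 3 motifs, and Reg3b held 1, of the STAT motif. For 5 genes with the STAT motif, windows with its letters in capitals follow with 10 flanking bases on each side.
Reg3b (chr6:78370746-78370774, plus strand): agcctgttctTTCTTGGAAactctttgag
Socs3 (chr11:117969502-117969530, minus strand): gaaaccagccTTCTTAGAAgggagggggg
Alpk1 (chr3:127780623-127780651, minus strand): cttgtgaaagTTCAGGGAAactccttatt
Cpn2 (chr16:30267593-30267621, minus strand): cttggtgacaTTCCGGGAAcagtcgatcc
Steap4 (chr5:7960346-7960374, plus strand): ggttgaactcTTCCCGGAAactttgcttc
The first base of the motif lies 129 bases upstream of the Reg3b start and 154 bases upstream of that of Socs3. The 3 windows that follow, with the interferon response core, are written in the direction of the gene and hold it on one strand or the other.
Sprr2a2 (chr3:92250565-92250593, plus strand): ccagcccttaTTCTCTTTCaggtttccaa
H2-T22 (chr17:36042914-36042942, minus strand): ttggcttagtTTCACTTTCgaatccccaa
Saa3 (chr7:46715783-46715811, minus strand): gttatcttctGAAAGAGAAattatgggta
The log2 differences of Alpk1, the kinase upstream of Tifa, of Steap4, a metal reductase, and of Saa3, an acute-phase apolipoprotein, were 1.86, 1.28 and 1.81; these 3 and Cpn2 were picked for their motif after their values were seen.

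Genes of drug and bile acid metabolism led those that were lower in the Reg3b-high libraries. In the list of targets of the xenobiotic and bile acid receptors, 42 of 44 had a negative difference, 10 were called lower and 0 higher, and the median was -0.68. Cyp2c29, a cytochrome P450 (chromosome 19, 39361575 to 39405203 of mm9), was at 1.39 FPKM in both high libraries and at 35.5, 26.8, 239 and 71.9 FPKM in control 1, control 2, mutant 1 and mutant 2. The level in the low libraries was 33.9-fold higher (log2 difference -5.08, SE 0.86). Cyp3a11, the main intestinal drug-metabolising P450, was at 1201, 702, 1808 and 844 FPKM in the low libraries and at 188 and 85.0 FPKM in control 3 and mutant 3. Cyp2b10, a classical target of the receptor CAR, was at 344, 272, 235 and 253 FPKM against 67.5 and 48.4. Its low libraries lay close together and its difference was -2.17 within controls and -2.32 within mutants.

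Several other enzymes followed. Akr1c19, an aldo-keto reductase, was at 164, 167, 202 and 229 FPKM in the low libraries and at 28.1 and 29.8 FPKM in the high ones (log2 difference -2.68, SE 0.11). Ces2a, a carboxylesterase, was at 50.6 to 267 FPKM against 36.9 and 17.1, and Aldh1a1, which makes retinoic acid, at 243 to 271 against 82.9 and 53.1. Ugt1a9, a glucuronosyltransferase, was at 3.08 and 3.80 FPKM in the high libraries, close to the 5.03 of control 1, while mutants 1 and 2 held 64.2 and 58.5. Slc28a1, a nucleoside transporter, was at 9.55 and 4.2 FPKM against 21.2 to 67.4.

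**Figure D2:**
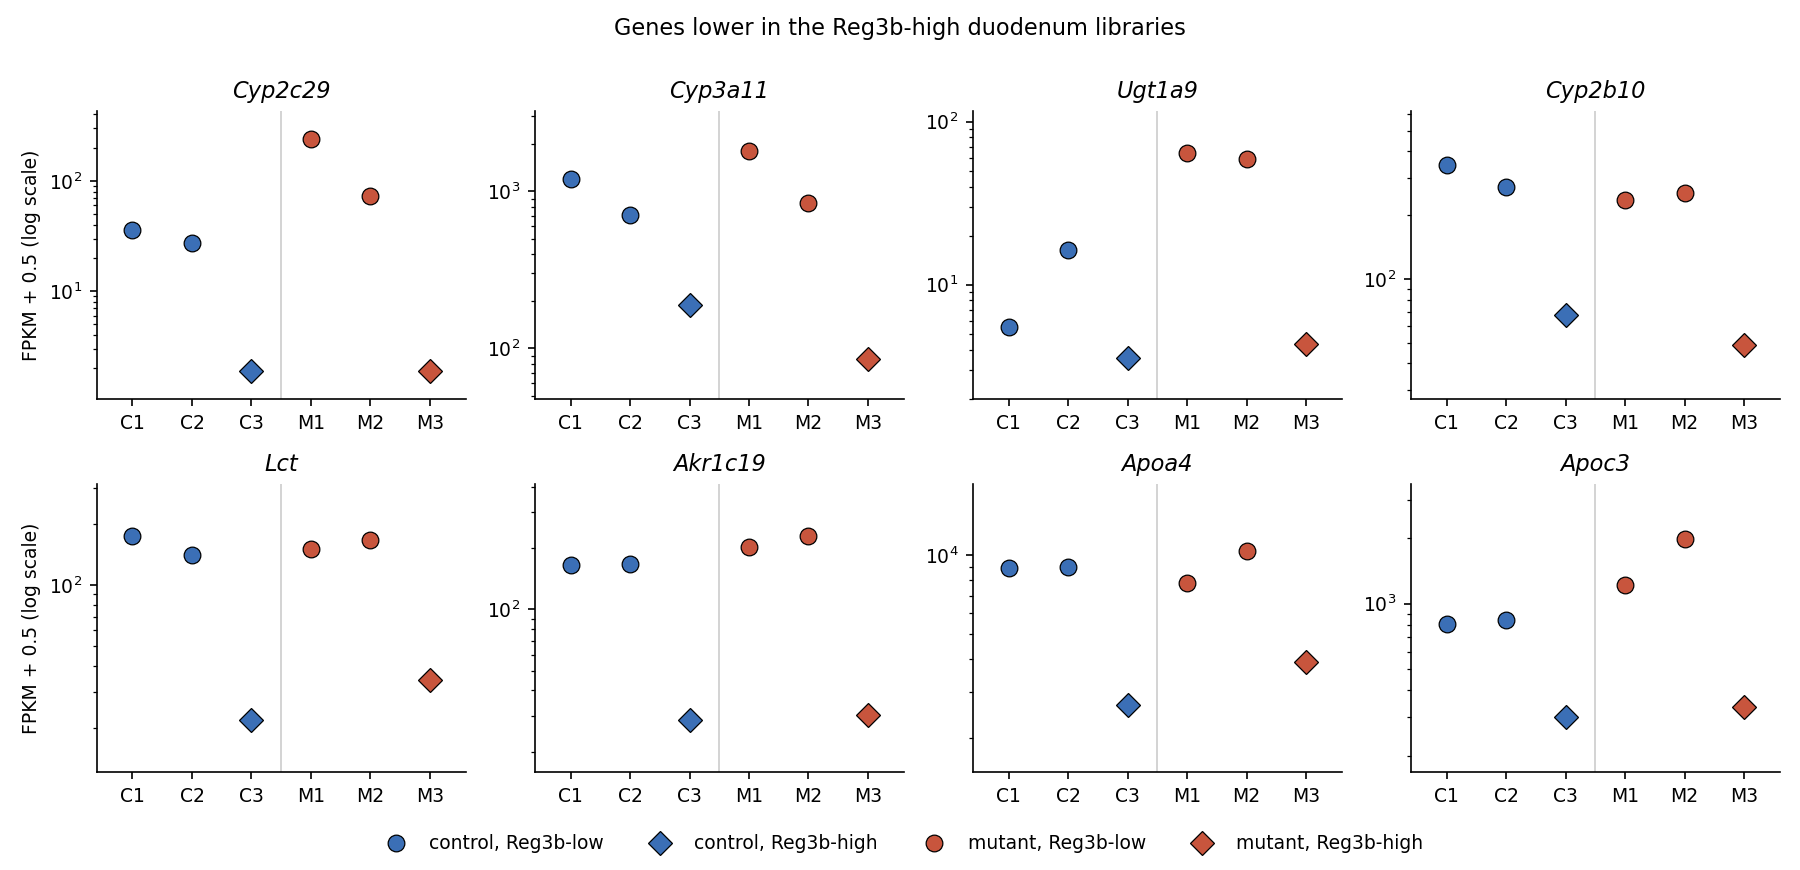
FPKM + 0.5 (log axis, its range differs between panels) of 8 genes in each library; C1 to C3 are controls and M1 to M3 mutants, circles are Reg3b-low and diamonds Reg3b-high libraries, and each point is 1 library. Both diamonds lie below all circles in every panel, as the choice requires; for Cyp2b10 they lie at 67.5 and 48.4 FPKM, and the circles at 235 to 344 FPKM.

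Some markers of mature enterocytes were called lower. In the brush border list, 5 of 21 were called lower and 0 higher (median -0.45). Lct, the lactase (chromosome 1, 130181341 to 130224895 of mm9), was at 173, 139, 149 and 166 FPKM in the low libraries and at 21.3 and 33.6 FPKM in control 3 and mutant 3, a log2 difference of -2.53 (SE 0.22). Mme, a membrane peptidase, was at 156 to 254 FPKM against 71.7 and 87.0. Akp3, an intestinal alkaline phosphatase, was at 6524 to 9990.1 FPKM against 4205 and 2729.8, while its neighbour Alpi was not called (log2 difference -0.46). In the list of villus markers 6 of 19 were called lower and 0 higher (median -0.60), among them Nt5e, an ectonucleotidase of the villus tip, at 21.1 to 41.8 FPKM against 5.87 and 9.05.

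Among 25 genes of lipid transport, 5 were called lower and 0 higher (median -0.27). Apoa4, an apolipoprotein of chylomicrons, was at 8903, 9033, 7837 and 10372 FPKM in the low libraries and at 2676 and 3924 FPKM in control 3 and mutant 3 (log2 difference -1.47). Apoc3 was at 806 to 1977 FPKM against 301 and 333, and Fabp2, a fatty acid binding protein, at 6103 to 9426 against 2992 and 2923. Fabp1 was not called, at 5477 to 8569.8 FPKM against 4075 and 5552. The target list of the fatty acid receptor PPARA had 3 of 26 called lower, 0 higher and a median of -0.14. Pdk4, a PPARA target that spares glucose, was at 17.8 to 49.1 FPKM in the low libraries and at 9.17 and 7.64 in the high ones.

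Other lower genes rest on fewer reads, on 1 library or on doubtful models. Hamp2, a hepcidin gene, was listed at 0 in both high libraries and came to at most 28.9 estimated fragments in a low one. Gkn2, a stomach gastrokine, was at 207 FPKM in control 2 and at most 1.28 elsewhere, and its log2 difference of -2.91 was -1.14 without control 2. Psca, a surface antigen, was at 25.4 FPKM in control 2, 2.62 to 4.75 in the other low libraries and 0.289 and 0.0739 in the high ones. The models of Rpl34 and Rpl34-ps1 overlap on chromosome 3, and their values, called higher for the first (3.03) and lower for the second (-3.40), cannot be told apart. Marcksl1-ps4 is a pseudogene whose reads may come from its parent gene.

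The difference between high and low libraries was next taken within each genotype. The 2 comparisons share no library. Control 3 lay at least 1 log2 unit above the mean and beyond both of controls 1 and 2 in 231 genes (1.67%), and below in 213 (1.54%). Mutant 3 lay above mutants 1 and 2 in 226 genes (1.63%) and below in 406 (2.93%). The genes above were shared by 94, which is 40.7% of the control list and 41.6% of the mutant list. The genes below were shared by 116, or 54.5% and 28.6%. Across all genes the 2 differences had a Pearson correlation of 0.585; genes are not independent replicates, Reg3b chose the libraries in both, and the value is a description. Of the genes called higher, 89 of 163 had a difference of at least 1 in both genotypes, and of those called lower 109 of 195. A call already requires the mean of the 2 differences to reach 1 in size, with both high libraries beyond all low ones. These counts are therefore partly set by the call and do not measure how the genotypes agree.

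**Figure D3:**
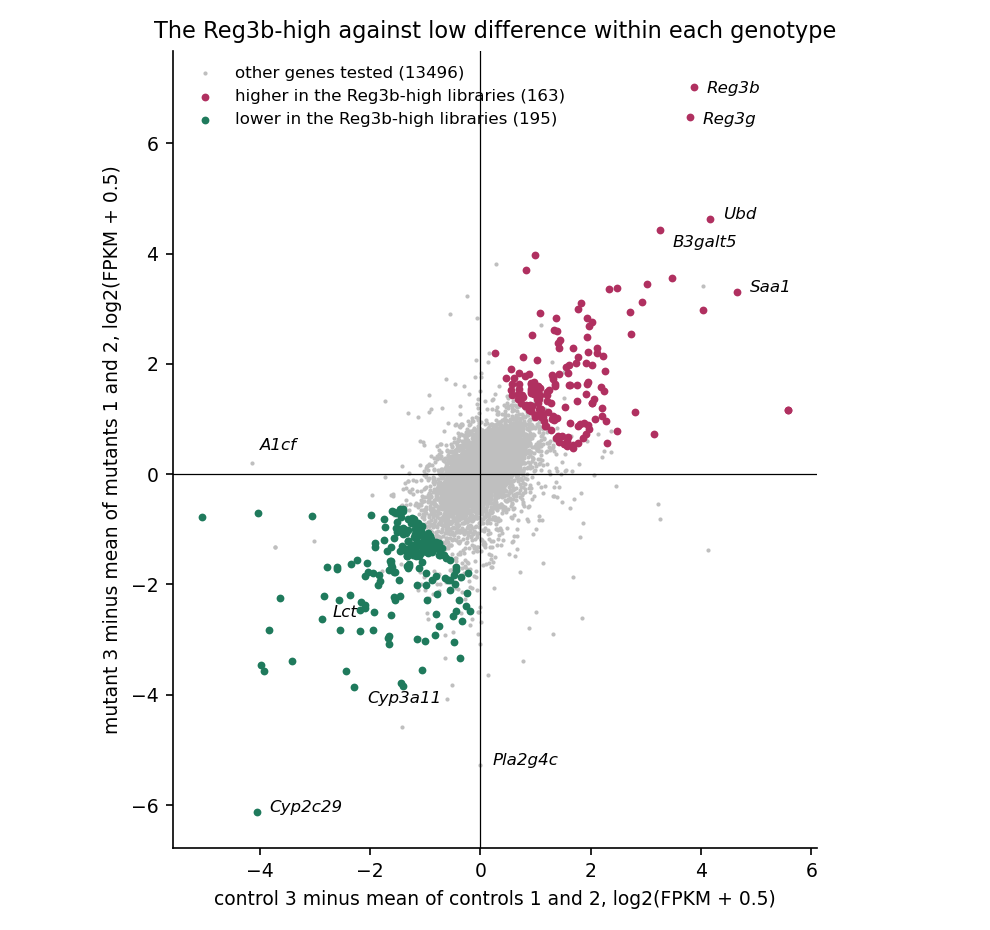
Each point is 1 of 13854 genes, with the log2(FPKM + 0.5) difference of control 3 from the mean of controls 1 and 2 on the x axis and that of mutant 3 from mutants 1 and 2 on the y axis; purple and green points are the 163 and 195 genes called higher and lower. Reg3b lies at 3.88 and 7.02 and Cyp2c29 at -4.05 and -6.12, while Pla2g4c differs within mutants (-5.27) and not within controls (-0.01).

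Several lists had medians on the same side of 0 in both genotypes. The antimicrobial list had medians of 1.20 within controls and 0.73 within mutants, and the class II list 0.91 and 0.85. The xenobiotic list had medians of -0.48 and -0.85, the villus list -0.48 and -0.76 and the brush border list -0.39 and -0.57. Proliferation genes lay at -0.11 within controls and 0.54 within mutants. Of these 28, 0 were called, which is no result where 1.18% of all genes were called higher and 1.41% lower.

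**Figure D4:**
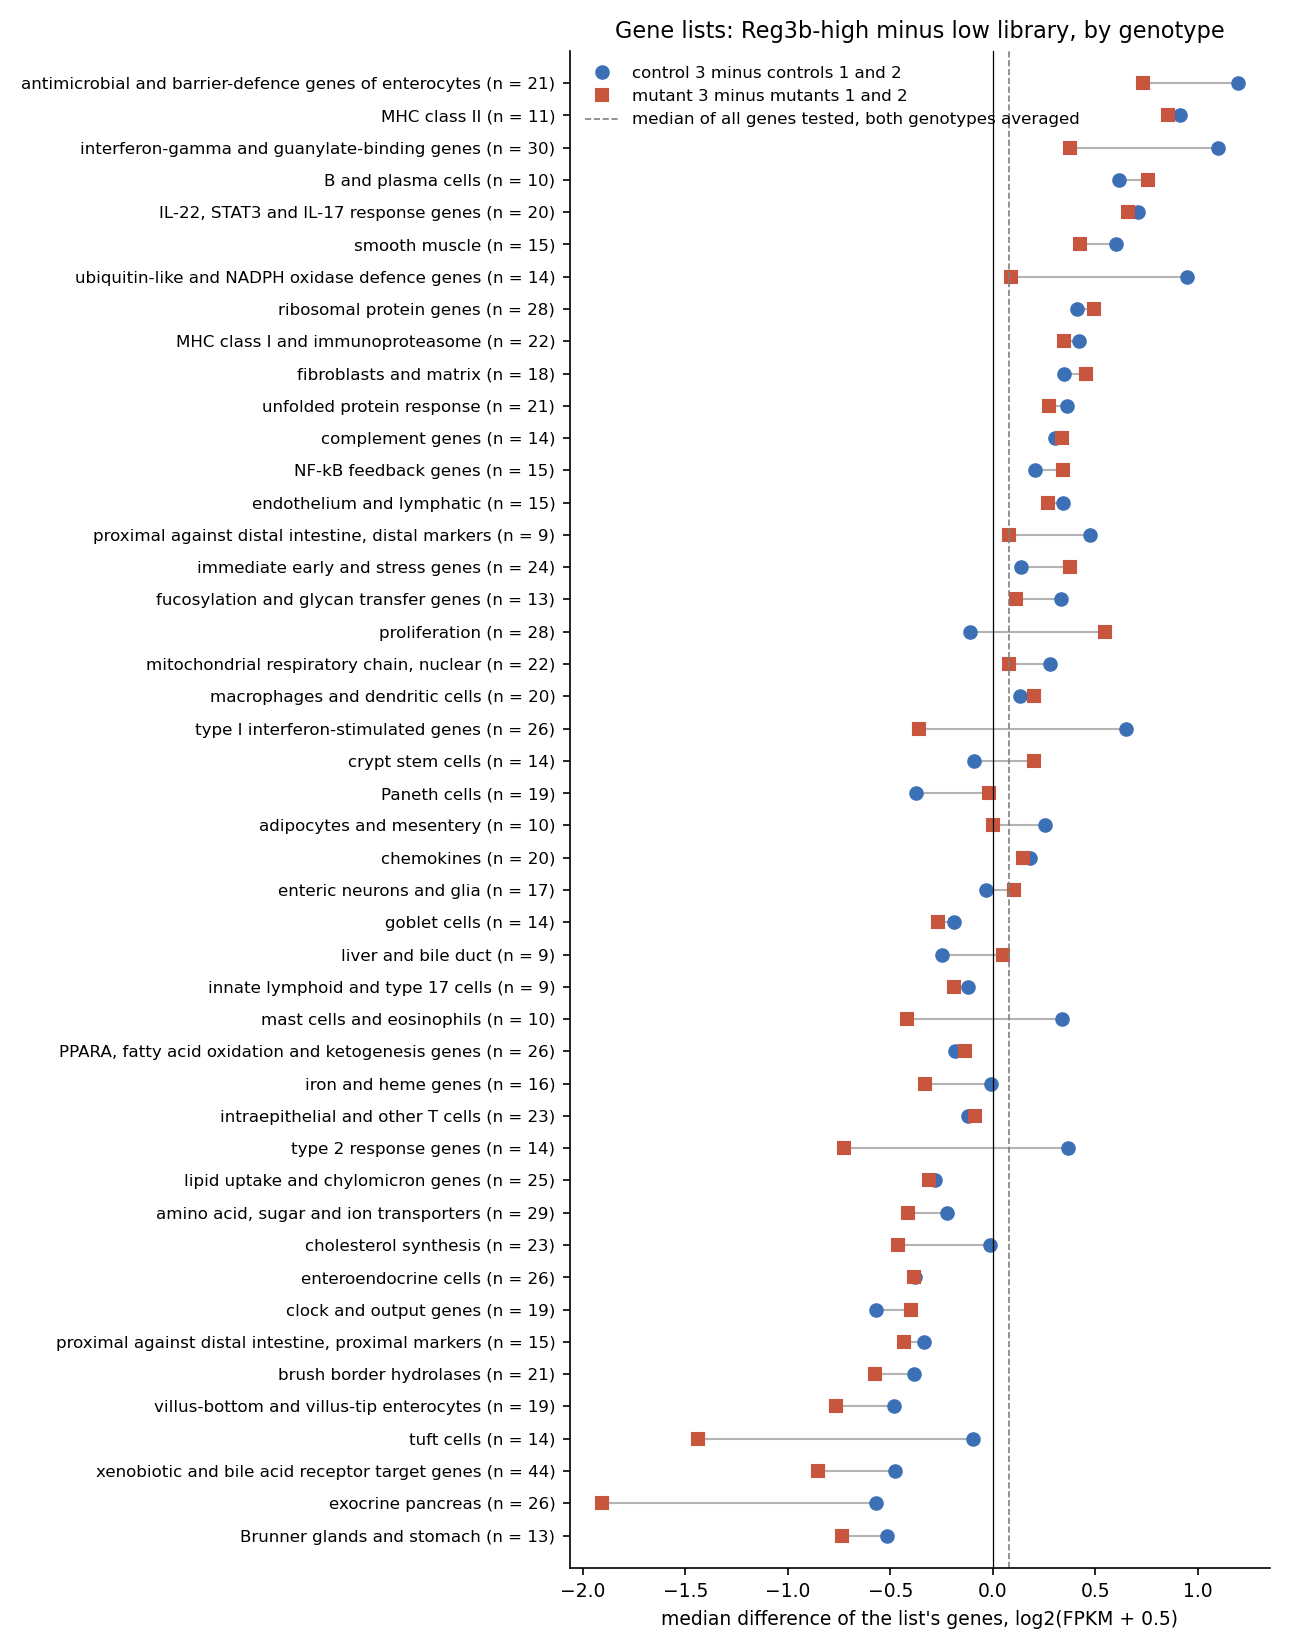
Median log2(FPKM + 0.5) difference of the genes of each list between the Reg3b-high library and the Reg3b-low libraries, within controls (circles) and within mutants (squares), for lists of at least 8 tested genes; n is the number tested and the dashed line marks the median of all genes (0.08). The antimicrobial list lies at 1.20 and 0.73 and the xenobiotic list at -0.48 and -0.85; tuft cell genes lie at -0.10 within controls and -1.44 within mutants.

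Markers of other cells and neighbouring organs moved with the split as follows, and their part in the results above was not tested. Of all genes tested, 1.18% were called higher and 1.41% lower, so 0 calls in lists this short are no result about a cell type. T cell markers had 0 of 23 called and a median of -0.19; Gzma, a granzyme of intraepithelial lymphocytes, was at 134 and 156 FPKM in the high libraries against 131 to 211, and their summed FPKM was 390.5 and 435 against 446 to 602. Igj, the joining chain of secreted antibodies, was at 1561 and 1423 FPKM against 699.6 to 899, a log2 difference of 0.92 that fell short of a call; the list of B and plasma cells had 0 of 10 called and a median of 0.71. Neutrophil markers were called in 1 of 6, the lactoferrin Ltf, which epithelia also make. All 15 smooth muscle genes had a positive difference (median 0.56, 0 called), and the summed FPKM was 1862 and 1571 in the high libraries against 1066 to 1238.

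Pancreatic and stomach genes varied widely between libraries. The summed FPKM of 26 exocrine pancreas genes was 32673 and 29336 in controls 1 and 2 and 21541 in control 3, and it was 19961 and 14742 in mutants 1 and 2 and 8343 in mutant 3. The list's median was -1.27, with 2 called lower and 0 higher. The list includes Zg16, which is also on the goblet cell list. Zg16 was at 3381 FPKM on average with a log2 difference of 0.18, so the sums are not of pancreatic RNA alone. Tff2, a trefoil peptide of Brunner glands, was at 2096, 6296, 2379, 3639, 855 and 104 FPKM in controls 1 to 3 and mutants 1 to 3, so that mutant 3 was lowest and control 3 was not. The globin genes Hbb-b1 (58.3 and 42.8 FPKM against 4.45 to 18.9) and Hba-a1 were called higher. Hba-a1 is listed at 2 loci: at the first it was at 219 and 103 FPKM against 26.8 to 64.2, and at the second at 128 and 69.5 against 17.8 to 60.8, so that mutant 3 lay close to mutant 2 there. The ribosomal protein genes had a positive difference in 28 of 28, with a median of 0.43. Clock genes were called in both directions, with Nr1d1 higher (61.9 and 68.9 FPKM against 16.2 to 34.5) and Per2 lower (5.49 and 8.40 against 14.3 to 19.4).

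The high minus low difference itself was compared between genotypes by an interaction term in limma. Reg3b values decided which library was high in each genotype and which 2 formed the low pair. The residual spread and these p-values can therefore be too small. Each genotype has 1 high library, so the 2 low pairs alone supply the spread (2 residual degrees of freedom), and the lone high libraries are assumed to vary like them. The p-values therefore compare these libraries and have no replicate of the high state behind them within a genotype, and mutant 3 is set apart from the other mutants also by its reporter allele. Of 13854 genes, 3 (0.0217%) had a higher difference in mutants and 14 (0.101%) a lower one at an adjusted p under 0.05, and 775 had an unadjusted p under 0.05. Pla2g4c, a cytosolic phospholipase, was at 114 and 94.6 FPKM in mutants 1 and 2, at 2.21 in mutant 3 and at 1.78, 1.34 and 1.54 in controls 1 to 3. The 2 Reg3b-low mutants lay above the other 4 libraries (difference of differences -5.26, SE 0.29, limma adjusted p = 0.000187). Trpm5, the cation channel of tuft cells, was at 11 and 12 FPKM in mutants 1 and 2 and at 1.71 to 3.45 in the others, a difference of -2.49 (limma adjusted p = 0.0177). Avil and Matk, 2 more tuft cell genes, had differences of -2.29 and -2.57 (limma adjusted p = 0.0233 and 0.0219).

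In this fit, 3 of 14 tuft cell genes and 3 of 14 type 2 response genes had an adjusted p under 0.05, the latter being Pla2g4c, Gsdmc2 and Retnla. Gsdmc2, a gasdermin of the intestinal type 2 response, was at 20.2 and 18.0 FPKM in mutants 1 and 2, 2.32 in mutant 3 and 0.160 to 1.05 in controls. Retnla was at 3.27 and 3.25 FPKM there and at most 0.739 elsewhere. The summed FPKM of the tuft cell list was 127 and 139 in mutants 1 and 2 and 40.2 to 47.4 in the other 4. Retnlb, a goblet cell product of the same response, did not follow this pattern, at 619, 792 and 478 FPKM in mutants 1 to 3 and 2.27, 1.42 and 20.9 in controls 1 to 3. The count of 17 ranged from 0 to 40 under other settings with all libraries, and it was 0 with quantile scaling or without a trended, robust prior. Leaving out a low library raised it to 41 without control 1, 44 without control 2, 225 without mutant 1 and 239 without mutant 2.

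**Figure D5:**
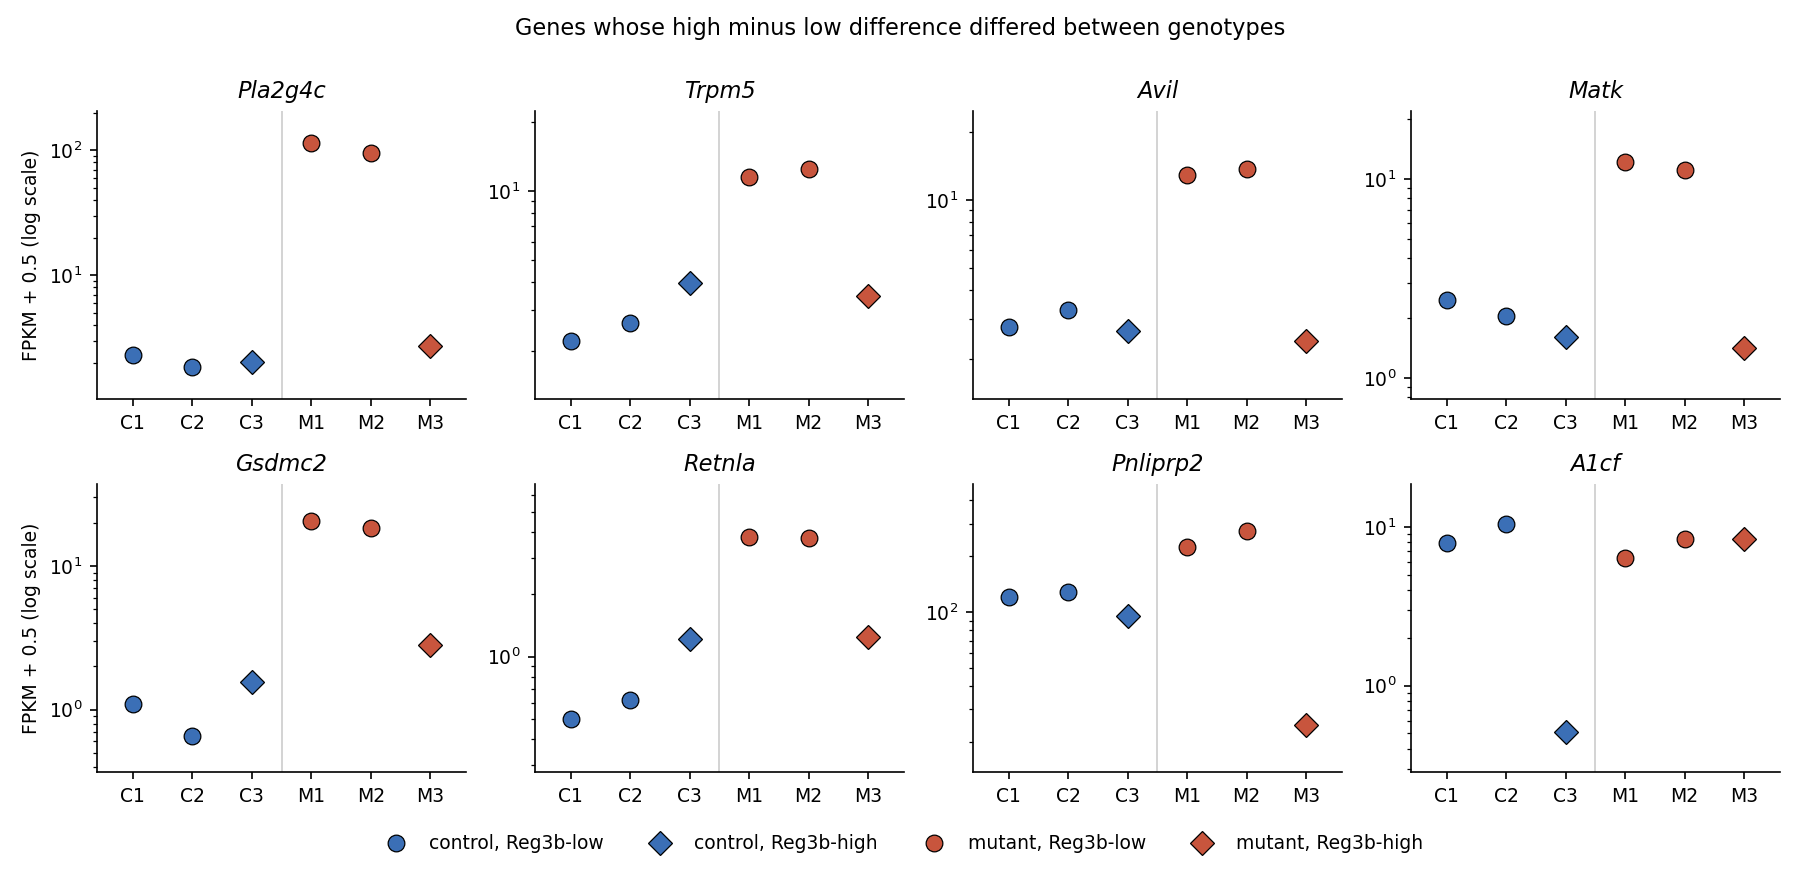
FPKM + 0.5 (log axis, its range differs between panels) of 8 of the 17 genes with an adjusted p under 0.05 for the interaction; C1 to C3 are controls and M1 to M3 mutants, circles are Reg3b-low and diamonds Reg3b-high libraries, and each point is 1 library. For Pla2g4c, M1 and M2 lie at 114 and 94.6 FPKM and the other 4 libraries at 1.34 to 2.21 FPKM; for A1cf, C3 lies at 0.0129 FPKM and the others at 5.88 to 9.84 FPKM.

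With the Reg3b split as a term, the genotypes were compared in the same libraries, apart from this division. They differ in Villin-Cre as well as in the floxed alleles. Xist was present in mutants 2 and 3 and barely detected in mutant 1 and every control, and its part in these differences was not tested. Of 13854 genes, 4 (0.0289%) were higher and 8 (0.0577%) lower in mutants at an adjusted p under 0.05, with 1171 at an unadjusted p under 0.05. The term was chosen on the data, so the residual spread and these p-values can be too small. Ghrl, the hormone ghrelin, was at 1319.9, 1359.5 and 644 FPKM in mutants 1 to 3 and at 82.4, 70.8 and 58.6 in controls 1 to 3 (log2 difference 3.90, SE 0.15, limma adjusted p = 0.000119). Chgb, a chromogranin of endocrine granules, was at 34.7, 34.4 and 18.3 FPKM in mutants and 113, 110.4 and 61.1 in controls (log2 difference -1.69, SE 0.07, limma adjusted p = 8.76e-05). In both genotypes the library numbered 3 held the lowest value of Ghrl and of Chgb. The granin Chga (-1.94), the tachykinin Tac1 (-2.38), secretin Sct (-0.99) and urocortin Ucn3 (-1.72) were lower and neuromedin Nmu (2.05) higher in mutants. Without the split term 0 genes passed, with 501 at an unadjusted p under 0.05. The count of 12 was 4 without control 2, 49 without mutant 1, 218 without control 3 and 219 without mutant 3. Of 358 genes called higher or lower between the Reg3b-high and low libraries, 0 were among these 12. Of all genes tested, 1.18% were called higher and 1.41% lower. A call needs both high libraries beyond the low ones of either genotype, which works against genes that differ between genotypes. The 0 is therefore no result about these genes.

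Enteroendocrine genes were not called between the high and low libraries in any of 26, although 22 had a negative difference (median -0.33). Of all genes tested, 1.18% were called higher and 1.41% lower. The call also works against genes that differ between genotypes, as 6 of these 26 did in the genotype fit. The 0 is therefore no result about the enteroendocrine genes. Their summed FPKM was 601 in control 3 against 810.0 and 809.8 in controls 1 and 2, and 874 in mutant 3 against 1659 and 1674 in mutants 1 and 2. Most of the mutant sums was Ghrl alone, at 1319.9, 1359.5 and 644 FPKM in mutants 1 to 3 and 82.4, 70.8 and 58.6 in controls 1 to 3. The list's median log2 difference between genotypes was -0.45, lower in mutants.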

How the data were processed

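Values are the FPKM per gene (23699 models) and per isoform (30028) that the authors deposited for each library, and the coverage signal in the isoform files, per the file headers. The mm9 genome, TopHat and Cufflinks, besides DESeq and CASAVA 1.8.2, are named in the submitters' processing notes; options, strand and the counting rule are not given in the sources used here. The authors' deposited table of group comparisons was not used. Depth in fragments came from the ratio of coverage to FPKM, with a read length of 101.5 bases and a length offset of 210 bases fitted so that low values fall on whole reads: of 17489 low values (20 reads or fewer), 93.8% came within 0.1 of a whole number. Depth limits genes of few FPKM; 6 genes called higher and 2 called lower had under 20 estimated fragments in every library. Rows that share a name (712) were kept apart by locus, and start coordinates were converted to count from 1.

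Samples were grouped by their titles, and split by Reg3b FPKM. Genes with at least 0.5 FPKM in at least 2 libraries and transcripts of at least 200 bases (13854) were fitted on the log2(FPKM + 0.5) scale. Tests were two-sided and used limma 3.58.1 with statmod 1.5.0 under R 4.3.3, with an eBayes prior both trended and robust. Benjamini-Hochberg adjustment ran over all genes, at a threshold of 0.05. The filter lets in genes present in the high libraries alone: 9 of the 163 called higher reached 0.5 FPKM in these 2 and no other. Among tested genes 78 had a Cufflinks status other than OK in at least 1 library, 6 of them called. The fits were tested on simulated data. Python 3.11.15, pandas 2.3.3, numpy 2.4.6 and matplotlib 3.10.9 served for summaries and plots.

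Genes were named by rule: Reg3b, Reg3g and Ubd; the 12 largest and 12 smallest differences among called genes of at least 1 FPKM on average, without predicted models and small RNAs; for each list, up to 4 called members and the 2 of highest level; the 5 smallest interaction p-values, with a predicted model (Gm5409) and a clone name (AA467197) left out; and up to 5 genotype calls in each direction. Alpk1, Cpn2, Steap4, Saa3, Xist, Nkx2-2, Vil1, Cdx2 and Pdx1, and the other genes of the interaction, were added after their values were seen. The members, rule and gene lists were chosen with earlier results of these data known. Both genotypes carry the numbers 1 to 3. Deviations from the group means correlated at 0.25, 0.28 and 0.59 within same-numbered pairs, all over 0.1. Control 1 with mutant 2 and control 2 with mutant 1, of unlike numbers, stood at 0.34 and 0.19. The 0.59 is of the 2 Reg3b-high libraries, so these values cannot tell pairing by number from the Reg3b split. The samples were taken as paired by number only in the fit with a replicate block, an alternative. Promoter sequences are RefSeq's, on GRCm38.p6. Other pseudocounts (0.1 and 1), filters, scalings and priors, a replicate block and leaving out each library were tried.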

Additional observations from a re-analysis of the deposited data

Results flagged for a closer look

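In 5 genes of at least 1 FPKM on average, the high minus low difference differed between genotypes by the interaction term, which has 1 high library in each genotype. They have the smallest interaction p-values once a predicted model, Gm5409, and a clone name, AA467197, are left out; these were at adjusted p = 0.00752 and 0.0131 in limma. The differences of differences (mutants minus controls, log2) were -5.26 for Pla2g4c, -2.95 for Pnliprp2, 4.35 for A1cf, -1.91 for Me1 and -2.03 for H2-Q10. Pnliprp2, a lipase of pancreas and Paneth cells, was at 225 and 272 FPKM in mutants 1 and 2, 24.2 in mutant 3 and 95.3 to 127 in controls. Me1, the malic enzyme, was at 113 and 106.1 FPKM in mutants 1 and 2, 24.2 in mutant 3 and 33.2 to 41.3 in controls. H2-Q10, a class I gene with near-identical copies, was at 5.14 FPKM in mutant 3, 16.9 in control 3 and 9.72 to 14.4 in the others. A1cf, a cofactor of apolipoprotein B RNA editing, was at 0.0129 FPKM in control 3 and 5.88 to 9.84 in the other 5, from a single isoform model with an OK status in every library. Neither genotype had the 4 samples that a search for outlying samples needs.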

How the results depend on the processing

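Counts of genes called higher or lower in the Reg3b-high libraries stayed within 1.5 times of 163 and 195 under every pseudocount, filter and scaling tried (higher 128 with a pseudocount of 1 to 228 with 0.1). Leaving out 1 library gave 168 to 195 higher and 195 to 335 lower, the last without control 3. A difference of at least 1.5-fold gave 564 higher and 483 lower, and a log2 difference of at least 2 gave 31 and 34; within controls these were 725 and 633, and 44 and 33. Scaling moved the balance: 45.5% of calls were higher as reported, 37.0% with upper quartile scaling, 37.9% with TPM and 39.6% with quantile scaling, and the median of all genes was 0.006 to 0.129 over the settings. The genotype count of 12 was 7 without a filter, 0 without the split term, 6 without a trended and robust prior, 22 at an adjusted p of 0.1, and 4 to 219 with 1 library left out. With the replicate block in a paired fit it was 17. The interaction count of 17 was 2 without a filter, 0 with quantile scaling, 3 with upper quartile scaling, 32 with TPM, 0 without a trended and robust prior, 40 at an adjusted p of 0.1, and 41 to 239 with 1 low library left out; it cannot be fitted without control 3 or mutant 3. Where a library is left out, its lone partner is assumed to vary like the other groups. The cause of these movements was not tested. Of 98 named genes that were called, 0 changed sign in any setting; of 94 that were not called, 28 did. Of 51 list medians 12 changed sign, each within 0.5 of 0 except the sex-linked list without mutant 1.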

Other observations

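The share of genes called higher varied between chromosomes, given here as a description. Chromosome 17 held 21 of them among 743 tested (2.83%), and the region from 33 to 38 Mb of mm9, which holds the H2 genes of antigen presentation and was chosen after the values were seen, held 12 among 173 (6.94%) and 4 called lower (2.31%). Outside chromosome 17 the shares were 1.08% and 1.41%. Besides Ubd, H2-DMa, H2-DMb1, H2-T22 and H2-T23, the region's genes called higher included the ribosomal protein gene Rps18 and the heat shock genes Hspa1a and Hspa1b, and H2-Bl lies there among those called lower. Rps18 was at 517 and 509.6 FPKM in control 3 and mutant 3, at 396 and 217 in controls 1 and 2 and at 42.3 and 35.0 in mutants 1 and 2. Linkage, strain and shared reads were not tested as sources of this pattern. Chromosome 3 held 19 of the genes called lower among 689 tested (2.76%).

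Markers of the mesothelium, the outer cover of the gut, were at low levels: Msln was at 3.62 and 1.75 FPKM in control 3 and mutant 3 and at 0.30 to 0.815 in the other libraries, and Upk3b at 2.58 and 1.62 against 0.292 to 0.690.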
